A study of Mus musculus with 7 samples.

Results

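Of the 38924 gene records counted in mouse hippocampus, 9 encode proteins of central nervous system myelin or of the cells that make it: Mbp, Mobp, Mog, Mag, Cnp, Cldn11, Mal, Opalin and Ermn. They were taken by gene name, together with all 88 of their exon bins among the 359565 exon bins counted. An exon bin is a piece of exon cut at every place where the annotated transcripts of a gene differ, so that its reads can be counted alone. The 9 genes were chosen with earlier values of the knockout comparison in view, so their knockout values are given below as a description.

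There were 3 libraries of Ammon's horn, the part of the hippocampus made up of the CA fields, from Khdrbs3 knockout mice, 1 library of wild-type dentate gyrus, and 3 libraries of wild-type Ammon's horn. All were polyadenylated RNA of adult mice on a C57Bl6 background, to which the Tstar null allele had been crossed back for 8 generations. Tstar is another name of Khdrbs3, which encodes an RNA-binding splicing regulator of the STAR family. The labels call the allele null and name no Cre driver. Nor do they say whether each library is a separate animal, so the p-values below rest on differences between libraries that may be technical. The wild-type Ammon's horn libraries serve as the controls of both comparisons.

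Each library held between 50230733 and 67692326 gene counts and between 29698245 and 39904606 exon-bin reads. The labels were checked on the targeted gene: exon bin 2 of Khdrbs3 held 6, 9 and 7 reads in the 3 knockout libraries, compared with 808, 1103 and 964 in the wild-type Ammon's horn libraries, while its other bins were read in all of them. All 4 dentate granule cell markers were higher and all 4 CA1 pyramidal cell markers lower in the dentate gyrus library than in wild-type Ammon's horn by edgeR at an adjusted p under 0.05. The summed level of 10 choroid plexus genes was uneven between libraries, at 808, 26.5 and 751 CPM (counts scaled to the size of each library) in the knockout, 274 CPM in the dentate gyrus and 160, 46.2 and 28.7 CPM in wild-type Ammon's horn. Besides the 9 genes, 8 further oligodendrocyte markers summed to 1159, 1212.5 and 1262 CPM in the knockout and 512 CPM in the dentate gyrus. In wild-type Ammon's horn they summed to 1394, 1362 and 1419.6 CPM, above every library of the other groups. Which cells the reads of the 9 genes came from was not tested. Of 4 markers of Schwann cells, the myelinating cells of peripheral nerve, the summed level was 43.8 to 47.6 CPM, nearly all of it Drp2 (42.4 to 45.7 CPM), with Prx at 1.26 to 2.16 CPM and Pmp2 at or below 0.129 CPM.

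Oligodendrocytes wrap axons in sheets of membrane that are pressed together into compact myelin. Myelin basic protein, the product of Mbp, binds the inner faces of these sheets to each other, and MOBP is a second basic protein of compact myelin. MAG sits in the innermost layer facing the axon, MOG on the outermost surface, CNP in the uncompacted cytoplasmic channels, and CLDN11 forms the tight junctions between the lamellae. MAL is a membrane proteolipid that takes part in membrane sorting, OPALIN is a transmembrane glycoprotein of oligodendrocytes, and ERMN (ermin) binds their actin cytoskeleton. Mbp has a second, upstream start whose products, the Golli proteins, are also made in neurons and in immune cells, while the products of the downstream start are called classic MBP. Several of these transcripts carry exons that are spliced in or out as oligodendrocytes mature, and the STAR protein QKI is known to regulate such exons.

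Alternative coding exons in 3 of the genes are shown because their shares in each library are reported below. They are the 45-base exon of Mag at chr7:30900352-30900396, the 117-base exon of Mog at chr17:37012336-37012452 and the 168-base exon of Mal at chr2:127640221-127640388, all on the minus strand and printed 5′ to 3′ from GENCODE M21 transcripts on GRCm38 (mm10).
Mag 45-base exon: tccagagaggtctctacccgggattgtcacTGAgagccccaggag
Mog 117-base exon: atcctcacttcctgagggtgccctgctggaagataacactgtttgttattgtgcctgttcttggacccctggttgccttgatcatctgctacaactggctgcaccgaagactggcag
Mal 168-base exon: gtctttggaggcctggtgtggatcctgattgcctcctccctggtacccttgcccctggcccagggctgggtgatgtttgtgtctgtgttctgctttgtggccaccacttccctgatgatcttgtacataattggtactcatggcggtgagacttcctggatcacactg
The capitals in the Mag exon mark an in-frame stop codon that begins at its base 31, so that transcripts holding the exon encode the short form of MAG (582 residues) and transcripts without it the long form (627 residues). The Mog exon keeps the reading frame and is held by the annotated transcript for 247 residues and skipped by the one for 208. The Mal exon also keeps the frame, with 153 residues encoded with it and 97 without it.

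The genes lie on 8 chromosomes of the mm10 genome. Mbp (ENSMUSG00000041607.10) spans chr18:82475146-82585637 on the plus strand and has 31 exon bins. Mobp (ENSMUSG00000032517.9) spans chr9:120149742-120181484, Cnp (ENSMUSG00000006782.10) chr11:100574904-100591729 and Cldn11 (ENSMUSG00000037625.6) chr3:31149946-31164324, all on the plus strand. On the minus strand are Mog (ENSMUSG00000076439.6, chr17:37010746-37023398), Mag (ENSMUSG00000036634.9, chr7:30899183-30914327), Opalin (ENSMUSG00000050121.8, chr19:41062474-41077113), Mal (ENSMUSG00000027375.8, chr2:127633226-127656695) and Ermn (ENSMUSG00000026830.9, chr2:58045113-58052864). The span of Cnp overlaps that of Dnajc7, a chaperone gene on the opposite strand, by 8912 bases, and the gene table counts each span with its introns, so its Cnp value may hold Dnajc7 reads. Shorter overlaps with opposite-strand genes are those of Ermn with Galnt5 (748 bases), Mbp with Rpl21-ps8 (483 bases) and Mog with Gm22388 (248 bases). The overlap of Ermn lies in its exon bin 1, so its exon-bin sums hold it too. The exon bins of 7 genes were matched to GENCODE M21 transcripts; those of Mbp and Mobp fitted several transcript sets and are given by number, with Mbp bins assigned to Golli or classic exons by their order and their reads, after the values had been seen.

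The 9 genes differed widely in level. Per kilobase of annotated exon, wild-type Ammon's horn averaged 330.5 ± 18 CPM per kb for Mbp, 89.1 ± 6.8 for Mobp, 74.3 ± 3.8 for Cnp, 64.6 ± 6.2 for Mag, 58.9 ± 2.2 for Mal, 50.2 ± 1.8 for Cldn11, 43.0 ± 4.9 for Mog, 11.2 ± 2.1 for Ermn and 10.3 ± 0.57 for Opalin (SD, n = 3). In this order the ranges of the 3 libraries overlapped between Cnp and Mag, between Mag and Mal and between Ermn and Opalin, and not between the other neighbours. The lengths of Mbp and Mobp were those of all M21 transcripts joined, so their place on this scale depends on that choice. A read over several bins also counts in each, so genes cut into many short bins can stand too high. Mog, for example, has bins of 14 and 21 bases.

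The clearest contrast was between regions: in the dentate gyrus all 9 genes were lower than in wild-type Ammon's horn, 8 of them at between 0.305 and 0.374 times its mean and Cnp at 0.532 times. Levels below are gene-table CPM. In the dentate gyrus library, Mbp stood at 686 CPM, against 2186, 2101 and 2019.5 CPM in the wild-type Ammon's horn libraries. Mobp had 172 CPM in the dentate gyrus, against 597, 560.2 and 529 CPM in wild-type Ammon's horn. Both basic-protein genes thus lay far below every Ammon's horn library. Cldn11, the tight junction gene, had 29.2 CPM in the dentate gyrus, against 85.1, 85.5 and 90.8 CPM in wild-type Ammon's horn. Mal had 56.7 CPM in the dentate gyrus, against 144, 156 and 155 CPM in wild-type Ammon's horn. These genes of the membrane sheet showed gaps of the same order as the basic proteins.

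The surface proteins of the myelin sheath followed the same order of regions. Mag had 37.4 CPM in the dentate gyrus, against 92.1, 108 and 115 CPM in wild-type Ammon's horn. Mog had 16.2 CPM in the dentate gyrus, against 38.8, 46.4 and 47.5 CPM in wild-type Ammon's horn. The gap in both exceeded the spread between the Ammon's horn libraries. Opalin had 3.54 CPM in the dentate gyrus, against 10.4, 12.4 and 11.95 CPM in wild-type Ammon's horn, and Ermn had 15.2 CPM, against 51.6, 42.7 and 36.1 CPM. Ermn was the most uneven of the 9 among the Ammon's horn libraries, and the dentate gyrus value still lay below all 3. Cnp had 171 CPM in the dentate gyrus, against 307, 332 and 326 CPM in wild-type Ammon's horn, the narrowest gap of the 9.

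**Figure D1:**
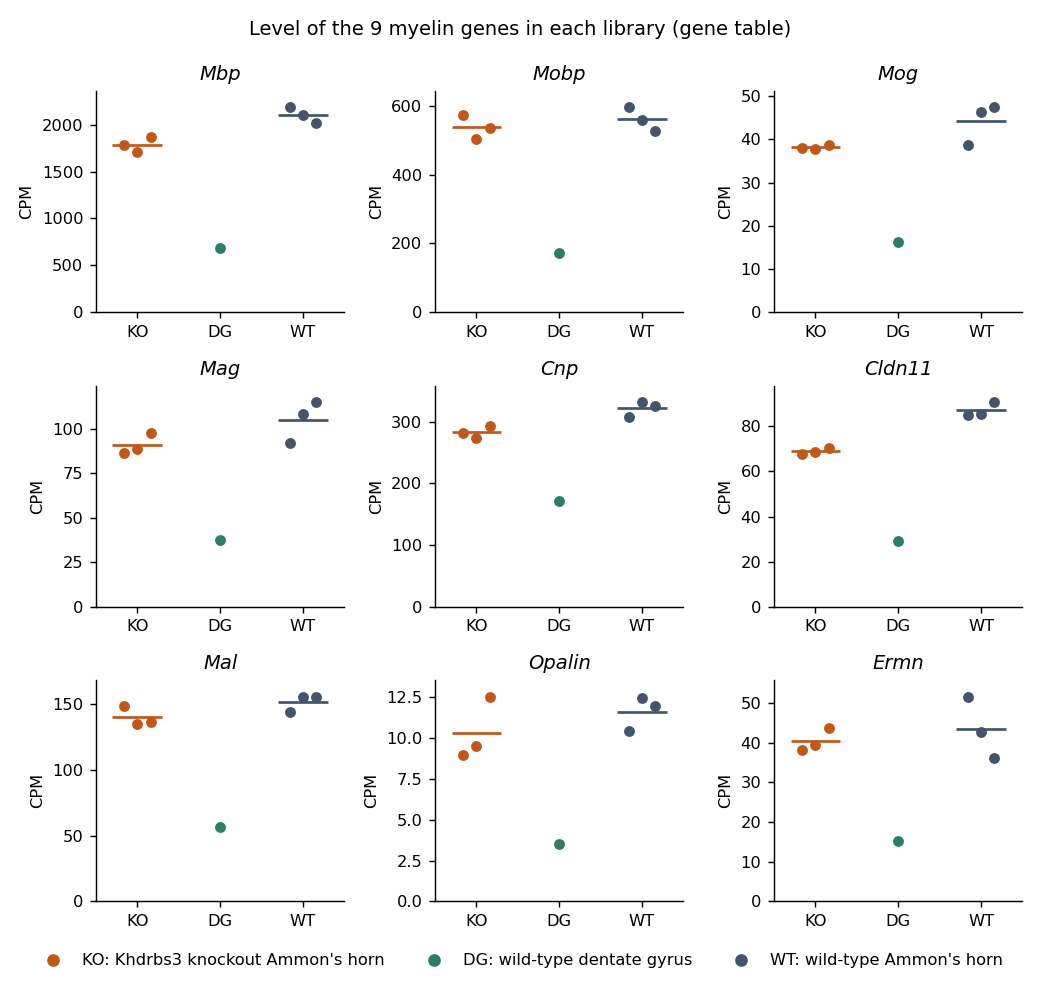
Level of each of the 9 myelin genes in each library, in CPM of the gene table on a linear axis from 0; points are libraries and bars the means of the groups with 3 libraries (KO, Khdrbs3 knockout Ammon's horn; DG, wild-type dentate gyrus; WT, wild-type Ammon's horn). The DG point lies below all 3 WT points in each of the 9 panels, as for Mbp at 686 CPM. KO and WT points are separate for Mbp, Cnp and Cldn11. For Mog the highest KO and the lowest WT point are level at 38.78 CPM, and for the others KO and WT points overlap.

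By edgeR's quasi-likelihood test all 9 genes fell in the dentate gyrus at an adjusted p under 0.05, where 10.9% of the 24486 genes tested were called lower and 11.2% higher. The dentate gyrus has 1 library without a replicate, and its spread was assumed to be that of the Ammon's horn libraries. The log2 fold change was -1.62 for Mbp (SE 0.08, edgeR adjusted p = 1.8e-06), -1.58 for Cldn11 (SE 0.08, edgeR adjusted p = 1.6e-06) and -1.71 for Mobp (SE 0.10, edgeR adjusted p = 4.1e-06). The other 6 lay between -1.72 for Opalin (SE 0.21, edgeR adjusted p = 3.1e-04) and -0.91 for Cnp (SE 0.08, edgeR adjusted p = 4.1e-05). The median of the 9 was -1.515, against -0.013 over all genes tested. At least 2-fold lower were 8 of the 9, against 1.76% of all genes, and below every wild-type Ammon's horn library were 9 of 9, against 35.9% of all genes. Fewer oligodendrocytes in the dissected tissue and less of these RNAs in each cell cannot be told apart in bulk RNA, nor can the region and the single library that stands for it.

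Cnp, an enzyme of the myelin cytoplasm, was the exception in size, and its value depended on how reads were counted. Summed over exon bins, which leave out the introns and of which bin 9 alone, with 8 to 14 reads per library, lies in the Dnajc7 overlap, Cnp had 109.5 CPM in the dentate gyrus, against 255, 277 and 279.5 CPM in wild-type Ammon's horn. Its log2 fold change on these sums was -1.30 (SE 0.09, edgeR adjusted p = 1.2e-06), so that all 9 genes were more than 2-fold lower. Over exon-bin sums 14.5% of all genes were called lower, and the 9 genes ranged from -1.85 for Opalin to that value of Cnp.

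**Figure D2:**
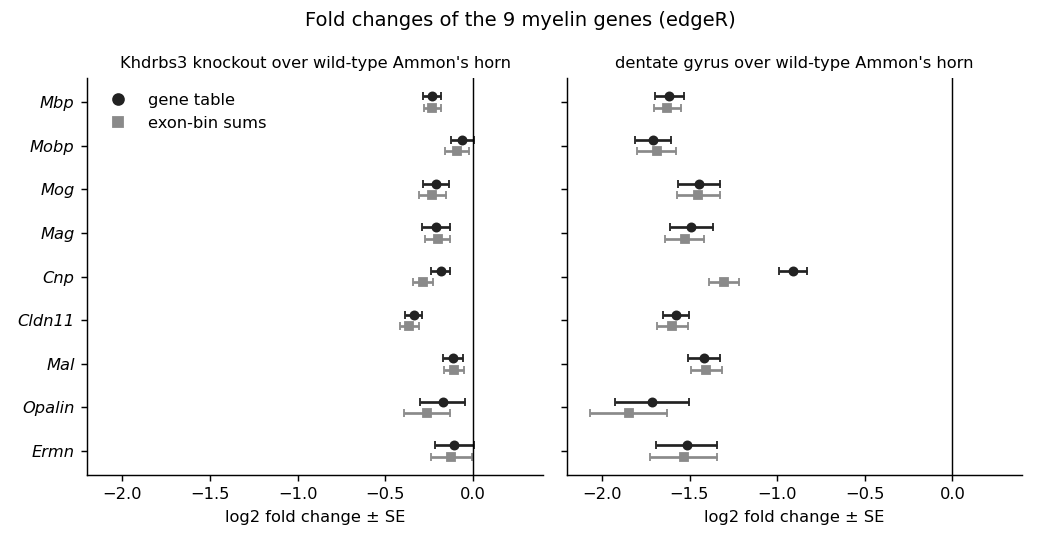
Log2 fold change of each gene with its standard error (bars), from edgeR, in Khdrbs3 knockout over wild-type Ammon's horn (left) and in dentate gyrus over wild-type Ammon's horn (right); circles are gene-table counts and squares sums of exon bins. All 9 genes lie left of 0 in both panels, between -1.72 and -0.91 in the dentate gyrus and between -0.34 and -0.06 in the knockout on the gene table. Circle and square stand furthest apart for Cnp in the dentate gyrus panel (-0.91 and -1.30). In the knockout panel the gap of Cnp (-0.18 and -0.28) is near that of Opalin (-0.17 and -0.26).

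Mbp did not move as a whole. The bins placed as Golli-only were read more in the dentate gyrus and those placed as classic less. They were placed by their order and by these same reads, so the split is not independent of the counts. Bin 17 was placed after classic exon 1, in a stretch that a Golli transcript alone holds in GENCODE M21. It had 1947 reads in the dentate gyrus, against 1029, 1314 and 1271 in the wild-type Ammon's horn libraries. That is 53.3 CPM, against 34.9, 33.7 and 35.2 CPM. Golli-only bins 1 to 8 together had 16.8 CPM in the dentate gyrus, against 11.4, 9.38 and 11.4 CPM in wild-type Ammon's horn. In both measures the 1 dentate gyrus library was above every wild-type Ammon's horn library, at 1.54 and 1.57 times their mean. The share of all exon bins that lay so is not given here, and region and single library cannot be told apart. Classic exon 3 (bin 21), shared by all classic transcripts, had 58.9 CPM in the dentate gyrus, against 253, 215 and 214 CPM in wild-type Ammon's horn, or 0.259 times their mean. In the annotation all 14 transcripts that span this exon hold it, Golli ones among them. The reads of this and other shared classic exons may therefore include Golli reads. Golli-only bins held 8.01% of all Mbp exon reads in the dentate gyrus (2561 of 31972), against 1.52%, 1.54% and 1.76% in the wild-type Ammon's horn libraries. The Clopper-Pearson 95% interval of the dentate gyrus share was 7.72% to 8.31%. Intervals of this kind, here and below, treat bin reads as independent, although a read over several bins is counted in each. They are therefore approximate, and they leave out differences between libraries.

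The usage test compares the change of a bin with that of its whole gene. Of the 79 member bins with enough reads, 12 were used more in the dentate gyrus by edgeR at an adjusted p under 0.05 and none less, all 12 in Mbp, where 0.186% of the 169072 bins tested in all genes were used more and 0.213% were called in either direction. They were the 7 Golli-only bins that could be tested (3 to 8 and 17) and bins 9 to 13, which lie between the last Golli-only bin of the 5′ end and classic exon 1. The Golli-only bins had log2 fold changes in usage between 2.20 and 2.48, among them 2.32 for bin 17 (SE 0.11, edgeR adjusted p = 3.5e-35), 2.48 for bin 8 (SE 0.19, edgeR adjusted p = 1.9e-20) and 2.34 for bin 7 (SE 0.21, edgeR adjusted p = 3.0e-16). Values were smaller toward classic exon 1, with 2.38 in bin 9, then 2.08, 1.98 and 1.97 in bins 10 to 12 and 0.86 in bin 13, and those of bins 14 and 15, 0.39 and -0.13, were not called. Bins 14 and 15 adjoin classic exon 1 (bin 16), whose value was -0.13. By limma-voom 18 Mbp bins were called, 10 of them the same Golli-side bins and 8 classic bins with lower usage, with bins 6 and 13 not called.

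Whether the Golli-only bins also rose in their own counts was tested for each bin alone, an alternative added after the data had been seen. Of the 7, 4 rose by edgeR at an adjusted p under 0.05, where 7.65% of the bins of all genes were called higher. They were bin 17 (log2 fold change 0.64, SE 0.10, edgeR adjusted p = 2.2e-05), bin 8 (0.80, SE 0.16, edgeR adjusted p = 8.3e-04), bin 7 (0.66, SE 0.18, edgeR adjusted p = 0.0111) and bin 4 (0.77, SE 0.24, edgeR adjusted p = 0.0295). Bins 3, 5 and 6 had values of 0.62, 0.52 and 0.70 and were not called. The 10 classic bins tested were all lower, between -1.94 for exon 3 (SE 0.11, edgeR adjusted p = 8.0e-14) and -1.73. Over all genes, 13470 of the 170900 bins tested in this way were called lower. Neuronal markers also differed between the regions: the 4 dentate granule cell markers had a median log2 fold change of 3.17 and the 4 CA1 pyramidal cell markers of -3.33, while of 6 markers of neurons or of their transmitter classes 4 were lower by edgeR (median -0.28). The part of these and other cell types in the Golli values was not tested.

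**Figure D3:**
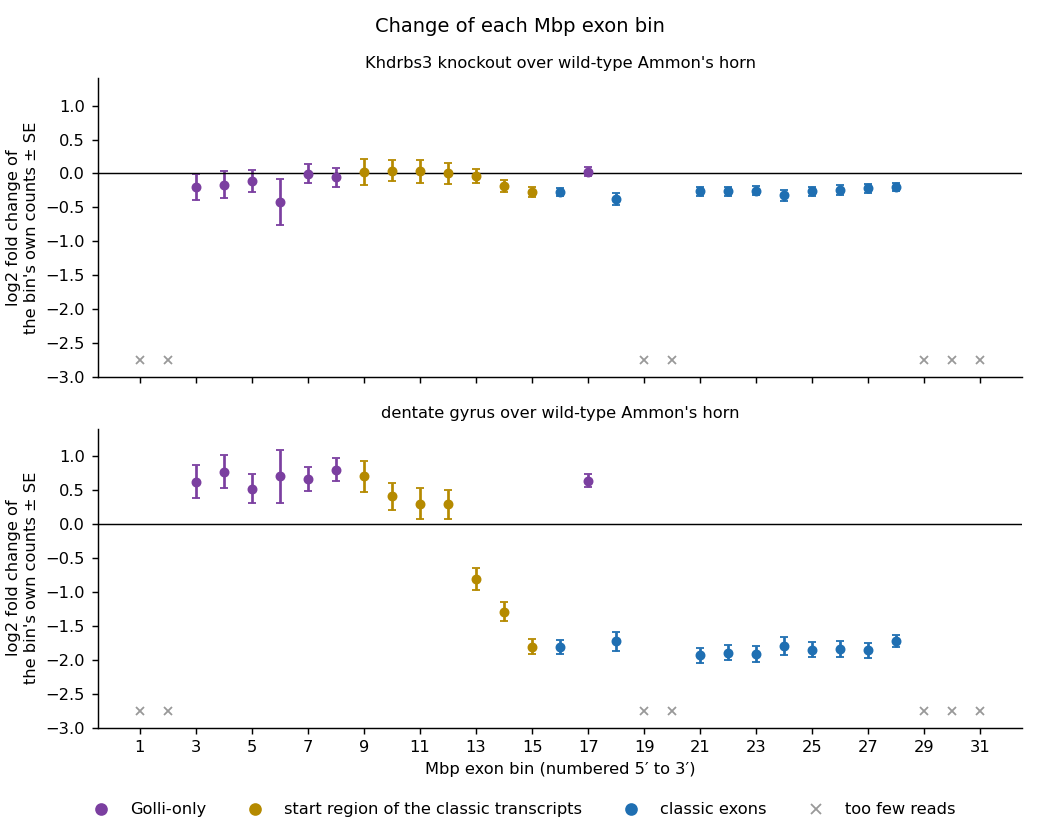
Log2 fold change of the own counts of each Mbp exon bin with its standard error (bars), in Khdrbs3 knockout over wild-type Ammon's horn (top) and in dentate gyrus over wild-type Ammon's horn (bottom), against bin number from 5′ to 3′; crosses are bins with too few reads. In the bottom panel the Golli-only bins lie between 0.52 and 0.80 and the classic bins between -1.94 and -1.73, with a descent through bins 9 to 15; in the top panel the classic bins lie between -0.38 and -0.20 and bin 17 at 0.03.

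**Figure D4:**
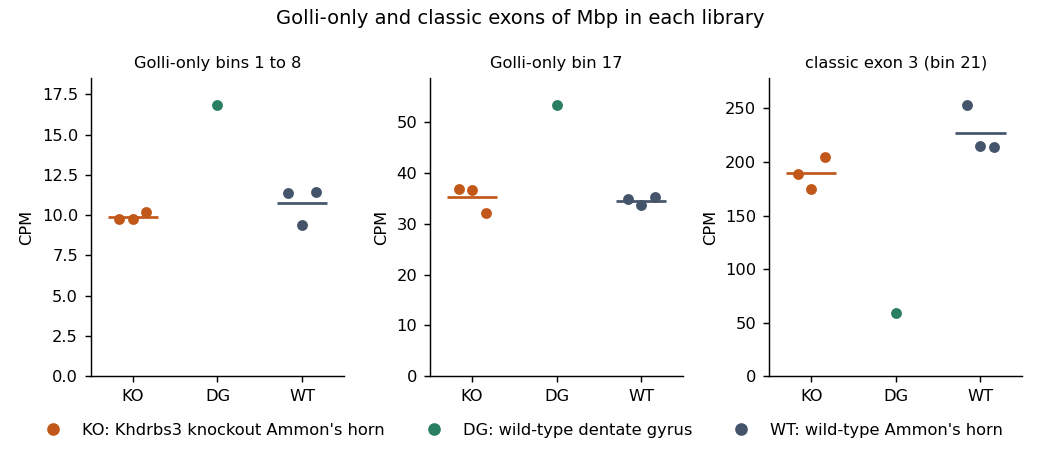
CPM of exon-bin reads in each library for Golli-only bins 1 to 8, Golli-only bin 17 and classic exon 3 of Mbp, on linear axes from 0, with bars at the means of the groups with 3 libraries. The DG point is the highest in both Golli panels (16.8 and 53.3 CPM) and the lowest in the classic panel (58.9 CPM).

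The alternative exons inside the classic Mbp transcripts were read by their share of all Mbp exon reads. Exon 2, which encodes a segment found in the larger MBP forms typical of early myelination, held 0.669% of Mbp exon reads in the dentate gyrus (approximate 95% interval 0.583% to 0.765%), against 0.601%, 0.718% and 0.773% in the wild-type Ammon's horn libraries. Exon 6 held 1.30% (1.18% to 1.44%), against 1.43%, 1.33% and 1.48%. Exon 5 held 3.71% (3.51% to 3.92%), against 4.47%, 4.24% and 4.41%. The dentate gyrus lay inside the Ammon's horn range for exon 2 and below it for exons 5 and 6, with usage log2 fold changes of -0.05 (SE 0.15), -0.24 (SE 0.13) for exon 5 and -0.11 (SE 0.14) for exon 6, none of them called by edgeR, while limma-voom called exon 5 used less. These shares are over all Mbp reads, of which Golli bins took more in the dentate gyrus. Set per base against the shared classic exons, exon 2 stood at 9.74% in the dentate gyrus, against 7.34%, 9.27% and 9.52% in the wild-type Ammon's horn libraries. On that scale exon 6 stood at 12.04% in the dentate gyrus, against 11.1%, 10.9% and 11.5%. Exon 5 has no placed length, so its reads were set against those of the shared exons without regard to length. Its value was 23.01% in the dentate gyrus, against 23.3%, 23.4% and 23.2%, and cannot be compared with those of exons 2 and 6. On this scale exons 2 and 6 were above every wild-type library and exon 5 below, and the direction of exon 6 turned with the scale. These values come from 1 dentate gyrus library, have no interval and rest on 214 reads for exon 2. No difference is read from their order.

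In the other 8 genes none of 55 bins tested was called for usage in the dentate gyrus by edgeR, and 1, bin 4 of Mobp, had an unadjusted p under 0.05; limma-voom also called none. In the alternative exons printed above, the dentate gyrus values sat near those of Ammon's horn. The stop-codon exon of Mag held 88 of 1914 reads in the dentate gyrus, or 4.60% (approximate 95% interval 3.70% to 5.63%), against 5.44%, 4.67% and 4.03% in the wild-type Ammon's horn libraries. The Mog exon held 9.63% (7.82% to 11.7%), against 9.497%, 8.72% and 10.3%. The Mal exon held 9.26% (8.08% to 10.6%), against 10.1%, 10.8% and 10.98%. The dentate gyrus was within the Ammon's horn range for Mag and Mog and below it for Mal, whose usage log2 fold change of -0.20 (SE 0.13) was not called. Mag bin 8, an internal coding exon that 1 of 5 annotated transcripts skips, held 10.3% in the dentate gyrus, against 10.2%, 10.4% and 10.9%. The upstream first exon bin of Cnp held 1.73% (1.35% to 2.20%), against 1.52%, 1.61% and 1.66%, and its bins 3 and 4 held 7.35% (6.55% to 8.22%), against 8.49%, 8.37% and 9.64%, all above the dentate gyrus value. With this depth of the dentate gyrus library, these approximate intervals leave room for modest differences in share.

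**Figure D5:**
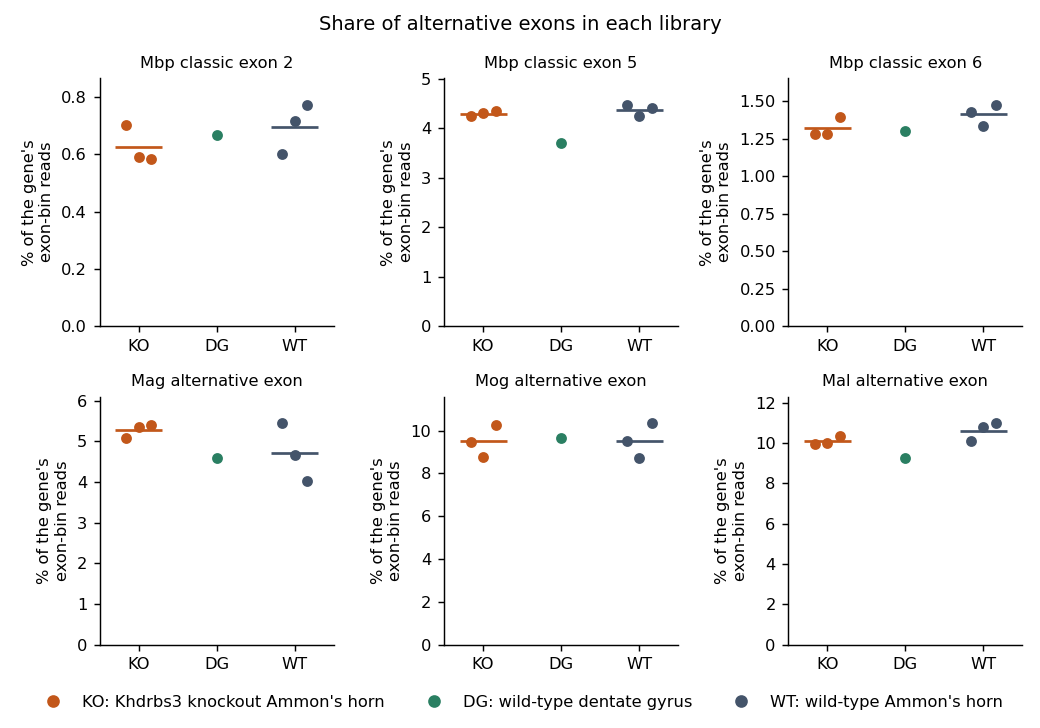
Share of each alternative exon in the exon-bin reads of its gene, in percent, in each library, on linear axes from 0, with bars at the means of the groups with 3 libraries. KO and WT points overlap in each panel; of the 6 exons plotted, the DG point lies below the WT points for Mbp exon 5 (3.71%), Mbp exon 6 (1.30%, but above them when set against the shared classic exons) and the Mal exon (9.26%).

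In the knockout the values of all 9 genes were lower than in wild-type Ammon's horn, by small amounts, and 49.5% of all genes tested had a negative value. Mbp had 1785, 1709.7 and 1865 CPM in the knockout libraries, against 2186, 2101 and 2019.5 CPM in the wild-type Ammon's horn libraries. Cldn11 had 67.8, 68.4 and 70.3 CPM in the knockout, against 85.1, 85.5 and 90.8 CPM in the wild type. Cnp had 282, 274 and 293 CPM in the knockout, against 307, 332 and 326 CPM. In these 3 genes, and narrowly in Mog at 38.0, 37.8 and 38.8 CPM in the knockout against 38.8, 46.4 and 47.5 CPM in the wild type, every knockout library was below every wild-type library, as in 6.44% of all genes. Mog rested on 1 close pair, since its highest knockout and its lowest wild-type library were both at 38.78 CPM to 4 digits.

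In the remaining genes the libraries overlapped. Mag had 86.5, 88.7 and 97.4 CPM in the knockout, against 92.1, 108 and 115 CPM in the wild type. Mobp had 575, 504 and 537 CPM, against 597, 560.2 and 529 CPM. Mal had 149, 135 and 136 CPM, against 144, 156 and 155 CPM. In each of these, 1 or more knockout libraries reached into the wild-type range. Opalin had 8.93, 9.52 and 12.5 CPM in the knockout, against 10.4, 12.4 and 11.95 CPM. Ermn had 38.0, 39.3 and 43.6 CPM, against 51.6, 42.7 and 36.1 CPM, so that wild-type values lay on both sides of the knockout range.

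The log2 fold changes in the knockout were -0.34 for Cldn11 (SE 0.05), -0.23 for Mbp (SE 0.05), -0.21 for Mog (SE 0.07), -0.21 for Mag (SE 0.08) and -0.18 for Cnp (SE 0.05), or -0.28 (SE 0.06) for Cnp on exon-bin sums. Those of Opalin (-0.17, SE 0.13, or -0.26 on exon-bin sums), Mal (-0.12, SE 0.06), Ermn (-0.11, SE 0.11) and Mobp (-0.06, SE 0.07) were smaller or less sure. Leaving out single libraries moved Opalin between -0.33 (without knockout replicate 3) and -0.08 (without knockout replicate 1), Mobp between -0.11 (without knockout replicate 1) and -0.01 (without wild-type replicate 1), and Ermn between -0.22 and 0.04 (wild-type replicates 3 and 1 left out in turn). The median of the 9 was -0.18, against 0.0015 over the 22830 genes tested. Cldn11 alone was among the genes called lower by edgeR at an adjusted p under 0.05, 0.00876% of all genes, where 0.0745% were called in either direction. DESeq2 called Mbp as well, limma-voom called none, and leaving out any 1 of the 6 libraries left none called, with the value of Cldn11 between -0.36 and -0.31. Since the genes were chosen on this comparison, nothing is read from these counts.

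Markers of other cells were read beside these values. All 9 microglial markers examined had negative values in the knockout (median -0.22) and none was called by edgeR, with summed levels of 489.8, 479 and 471 CPM in the knockout and 553, 499 and 537 CPM in wild-type Ammon's horn, while the median of 8 astrocyte markers was -0.05; the part of these cells in the myelin values was not tested. With the 2 knockout libraries rich in choroid plexus RNA left out, the median of the 9 was -0.23 and none was called. Within Mbp, Golli-only bins 1 to 8 together had 9.76, 9.78 and 10.2 CPM in the knockout, against 11.4, 9.38 and 11.4 CPM in wild-type Ammon's horn, a ratio of means of 0.924. Bin 17 had 36.9, 36.7 and 32.05 CPM in the knockout, against 34.9, 33.7 and 35.2 CPM, a ratio of 1.02. Classic exon 3 had 188, 175 and 205 CPM in the knockout, against 253, 215 and 214 CPM, a ratio of 0.832. The ranges overlapped in both Golli measures and not in classic exon 3. In their own counts neither classic exon 3 (log2 fold change -0.26, SE 0.07, edgeR adjusted p = 0.40) nor bin 17 (0.03, SE 0.07) was called. The share of all exon bins without overlap is not given here, and the difference between the starts was not tested as such.

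None of the 79 member bins was called for usage in the knockout by edgeR, as 0.00301% of the 166154 bins tested in all genes were; 2 had an unadjusted p under 0.05, bin 17 of Mbp (usage log2 fold change 0.26, SE 0.09) and bin 9 of Cnp, the sparsely read bin in the Dnajc7 overlap (0.85, SE 0.36), and limma-voom called none. The next smallest was bin 13 of Mbp (0.18, SE 0.10). Exon 2 of Mbp held 0.703%, 0.591% and 0.583% of Mbp exon reads in the knockout, against 0.601%, 0.718% and 0.773% in the wild-type Ammon's horn libraries, and exon 6 held 1.28%, 1.28% and 1.396%, against 1.43%, 1.33% and 1.48%. Exon 5 held 4.25%, 4.30% and 4.34%, against 4.47%, 4.24% and 4.41%. The ranges overlapped in all 3 exons.

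The stop-codon exon of Mag held 5.07%, 5.35% and 5.41% of Mag exon reads in the knockout, against 5.44%, 4.67% and 4.03% in the wild-type Ammon's horn libraries. The Mog exon held 9.47%, 8.75% and 10.3%, against 9.497%, 8.72% and 10.3%, and the Mal exon 9.97%, 10.02% and 10.4%, against 10.1%, 10.8% and 10.98%. Knockout and wild-type ranges overlapped for each of the 3 exons, and the usage log2 fold changes were 0.18 (SE 0.11) for Mag, -0.01 (SE 0.12) for Mog and -0.07 (SE 0.08) for Mal. No change in any of these exons was called at this depth.

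Other genes of myelin and of the oligodendrocyte line were read from lists of named genes. Of 12 further membrane proteins of myelin and oligodendrocytes all 12 were lower in the dentate gyrus by edgeR (median log2 fold change -1.08), among them Ndrg1 (-1.68, SE 0.09, edgeR adjusted p = 2.6e-06) and Tmem88b (-1.33, SE 0.14, edgeR adjusted p = 1.2e-04). None was called in the knockout, where 10 of the 12 values were negative (median -0.12) and Hapln2, which encodes a matrix link protein of the nodes of Ranvier, had a value of 0.27.

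Of 9 lipid and metabolic enzymes 6 were lower in the dentate gyrus by edgeR (median -0.93), including Trf, which encodes transferrin (-1.12), and 3 genes of myelin glycolipid synthesis, Ugt8a (-1.28), Fa2h (-1.31) and Gal3st1 (-1.11). In the knockout none was called and the median was -0.05, with -0.26 for Ugt8a and 0.20 for the fatty acid elongase gene Elovl7. Of 10 transcription factors of the line 6 were lower in the dentate gyrus (median -0.63): they included Olig1 (-0.90), Myrf, the activator of myelin genes (-0.97), Sox10 (-1.05) and Nkx6-2 (-1.09), while Zfp536 was higher (0.69). None was called in the knockout (median -0.01), where the largest values were 0.21 for Zfp488 and -0.17 for Olig1.

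Genes of precursors and newly formed oligodendrocytes had values nearer to 0. Of 9 of them 3 were lower in the dentate gyrus by edgeR, with a median of -0.23: Bcas1, a marker of early myelinating cells (-1.24, SE 0.09, edgeR adjusted p = 1.3e-05), C1ql1 (-0.64, SE 0.19, edgeR adjusted p = 0.0327) and Gpr17 (-0.51, SE 0.16, edgeR adjusted p = 0.0386). Pdgfra, the growth factor receptor of precursors, had 40.2 CPM in the dentate gyrus, against 47.9, 44.3 and 49.4 CPM in wild-type Ammon's horn, and was not called. None of the 9 was called in the knockout, where the median was 0.00049 and the largest values were -0.26 for Gpr17 and -0.23 for C1ql1. Among 7 regulators of myelin RNA, Khdrbs3 itself was lower in the dentate gyrus (-0.83) and Khdrbs1 (0.44) and Khdrbs2 (0.47) were higher, and in the knockout Khdrbs1 (0.51), Khdrbs2 (0.86) and the gene-table count of Khdrbs3 (0.51) were higher.

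Markers of other cell types were read beside these genes. Of 8 astrocyte markers 1 was lower in the dentate gyrus by edgeR and the median was 0.12, and of 9 microglial markers 4 were lower with a median of -0.32. All 4 markers of ependyma, the ciliated lining of the ventricle, were lower (median -1.65), at a summed level of 14.02 CPM in the dentate gyrus, against 27.4, 25.5 and 25.7 CPM in wild-type Ammon's horn. The part of ependyma in the myelin values was not tested.

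Genes outside the 9 were ranked by how near their pattern over the 7 libraries lay to the mean of the 9, among 13221 genes with a mean of at least 5 CPM, by the root-mean-square distance between log2 CPM centred on each gene's own mean. Among the 8 nearest were Prr18 (distance 0.062), Rprml (0.073), Galnt9 (0.075), N4bp3 (0.079), BC030500 (0.081) and Sez6 (0.086). The 9 genes themselves lay at distances from 0.066 for Mbp to 0.195 for Cnp, so that Prr18 was nearer to the common pattern than any of the 9. Prr18 had 33.4, 31.2 and 37.7 CPM in the knockout, 13.6 CPM in the dentate gyrus and 40.6, 37.4 and 38.8 CPM in wild-type Ammon's horn.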

How the data were processed

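Raw read counts of 7 libraries were used, per the labels from polyadenylated RNA (Qiagen RNeasy plus, Illumina TruSeq mRNA). The authors deposited counts of 38924 gene records, over whole spans with introns, and of 359565 exon bins, neither normalised. The submitters' processing notes list mm10 and, without assigning steps, TopHat2 2.0.8b, Trim Galore 0.3.5, DESeq2 1.0.19 and bedtools 2.17.0. Reads in no bin (3.53% to 4.83% of each exon-bin file) and ambiguous reads (1.73% to 2.01%) were left out. A read over several bins counts in each of them. Strandedness of the counting is not given in the sources used here.

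Gene counts were tested over all genes in R 4.3.3 with edgeR 4.0.16 (TMM, low-count filter, quasi-likelihood F test, Benjamini-Hochberg adjusted p under 0.05): the knockout with 6 libraries, the dentate gyrus with all 7 in 3 groups sharing 1 spread estimate (biological coefficients of variation 10.6% and 10.8%). Exon usage was tested with diffSpliceDGE for bins reaching 10 reads in 3 or more libraries. Levels are TMM-scaled CPM. The edgeR gene test and exon-usage test were tried on simulated counts. Alternatives were DESeq2 1.42.0, limma-voom (limma 3.58.1), RLE size factors, no filter, exon-bin sums, bin minimums of 5 and 20, leaving out mitochondrial genes or libraries, and a 2-fold threshold. The members, the lists and the rules for naming genes were chosen with earlier results of these data known. Named were all 9 genes, called bins and the 3 bins of smallest p per comparison, Golli-only and alternative exons, up to 4 called genes per list (otherwise the 2 largest values), and the 8 genes of nearest pattern (log2 of CPM plus 0.5). Qk and Lhfpl3 of the lists did not match 1 gene record each and are not analysed here. A few genes that these rules would name are not reported here. The placement of Mbp bins as Golli-only or classic was made after their counts were seen.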

Additional observations from a re-analysis of the deposited data

How the results depend on the processing

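All 9 genes were called lower in the dentate gyrus under each of 13 alternatives, and 8 at a 2-fold threshold; without any 1 of the 6 Ammon's horn libraries the count stayed at 9. For Mbp the log2 fold change ranged from -1.64 to -1.59 and for Cnp from -1.30 (exon-bin sums) to -0.89. The count of 12 Mbp bins used more in the dentate gyrus stayed at 12 without any 1 of these, was 11 at a bin minimum of 20 reads, which left bin 6 untested, and 18 with limma-voom, 10 of them shared. Over all genes the number of bins called there was 360, and ranged from 196 without wild-type replicate 1 to 553 with limma-voom.

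In the knockout the count of 1 gene called (Cldn11) became 2 with DESeq2 and 0 with limma-voom, without mitochondrial genes and without both choroid-rich knockout libraries; it was 0 to 0 on leaving out single libraries. The cause was not tested. Ermn ranged from -0.22 without wild-type replicate 3 to 0.036, above 0, without wild-type replicate 1. The count of 0 knockout bins called stayed at 0 under each alternative. The bins' own counts gave values of -0.20, -0.16, -0.11, -0.0012 and -0.058 for Mbp bins 3, 4, 5, 7 and 8, against positive usage values. Over all genes the number called in the knockout was 17, and ranged from 4 to 119.

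No paired analysis was possible because the replicate numbers were given in accession order and pair no samples. Depth limits bins of few reads, such as Mbp bin 6 with 9 to 27 per library, and the dentate gyrus has 1 library.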
